A study of Mus musculus with 2 samples.

Results

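Ribosomal protein genes were examined in RNA-seq of mouse haematopoietic stem and progenitor cells that carried either of 2 forms of PML/RARa, the fusion protein that drives acute promyelocytic leukaemia. The genes were chosen by symbol alone: names made of Rpl or Rps and a number with at most 1 closing letter (a, l, x or y), together with Rpsa, Rplp0, Rplp1, Rplp2 and Fau, and without pseudogene names or the ribosomal S6 kinases. This gave 82 of 34745 gene models, 33 of the small (40S) subunit and 49 of the large (60S) subunit. GENCODE M21 lists 81 of them as protein coding. The exception is Rps4l, which it lists as a transcribed processed pseudogene.

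Marrow came from the femurs of C57BL/6 mice given 5-fluorouracil. Progenitors were enriched with a kit and spun with concentrated lentivirus at 1800 rpm for 40 min in 6 µg/ml polybrene, then kept for 24 h at 37 °C before a change of medium. Both cultures had IMDM with SCF at 50 ng/ml, IL-3 and IL-6 each at 10 ng/ml, 20% fetal bovine serum, 1% bovine serum albumin, 1 mM hydrocortisone, 100 mM 2-mercaptoethanol, 2 mM L-glutamine and 1% penicillin/streptomycin, as the labels give them. The WT group carried PML/RARa (WT) and the 2KR group PML/RARa (2KR), and transduced cells were sorted. Each form had 1 library, and the number of mice and the time of harvest are not stated in the labels. An empty-vector arm was not analysed here.

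Cytosolic ribosomal proteins assemble with ribosomal RNA into the small subunit, which reads the mRNA, and the large subunit, which joins amino acids. Each is needed in about equal copy number, and their mRNAs mostly open with a stretch of pyrimidines (the 5′ TOP tract) through which growth signalling via mTORC1 controls their translation. In blood formation, loss of 1 copy of several of these genes causes Diamond-Blackfan anaemia, an inherited failure of red cell production.

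Sequencing depth was 17606168 counts for WT and 20462011 for 2KR. Values are CPM (counts relative to library size, which was adjusted for composition by TMM scaling), and ratios are 2KR over WT with an exact 95% interval that covers counting error only. With 1 library per form there is no replicate error, so no test was run, and the intervals compare these libraries and not the conditions. In bulk RNA, a shift in the cells present and a shift in RNA per cell cannot be told apart. All 6 progenitor markers were read in both libraries, at 3195 CPM (WT) and 3302 (2KR) in sum, with ratios on both sides of 1. Cd34, Flt3 and Myb had ratios of 1.865, 1.810 and 1.388, and Kit, Ly6a and Gata2 of 0.853, 0.661 and 0.656. The 5 mast cell markers, which again include Kit, summed to 6845 CPM (WT) and 3687 (2KR), with Fcer1a at 0 in both. The 5 erythroid markers summed to 15.6 and 25.9 CPM, with Hbb-bs at 0 in both. The 4 stromal markers summed to 547 and 454 CPM, the 4 macrophage markers to 39.5 and 38.05, and the 4 granulocyte markers to 229 and 524. The 4 B cell markers summed to 0.582 CPM at most and the 4 T cell markers to 0.458. The part of these markers in the ratios below was not tested.

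Most ribosomal protein genes were slightly higher in the 2KR library, many by nearly the same factor. Of the 82 genes, 78 had a mean of at least 1 CPM. Their counts together were 284254 in WT and 400271 in 2KR, or 1.61% and 1.96% of each library. The summed level was 16258 CPM (WT) and 19426 (2KR), a ratio of 1.195 (1.189 to 1.201). The median log2 ratio of CPM + 1 was 0.23 (quartiles 0.14 and 0.28), beside 0.02 (quartiles -0.21 and 0.23) over all 12466 models at a mean of at least 1 CPM.

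Of the 78 genes, 66 had a ratio above 1, which is 84.6%, beside 52.3% of all tested models. For 58 genes the counting interval lay wholly above 1, beside 31.6% of all tested models. It lay wholly below 1 for 3 genes, beside 28.5% of all models. At least 1.2-fold higher on the CPM + 1 scale were 25 genes, or 32.1%, beside 21.5% of all models, and at least 1.2-fold lower were 3 genes, beside 21.1%. No gene differed 2-fold on this scale, where 2.66% of all models were at least 2-fold higher and 4.56% at least 2-fold lower.

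**Figure D1:**
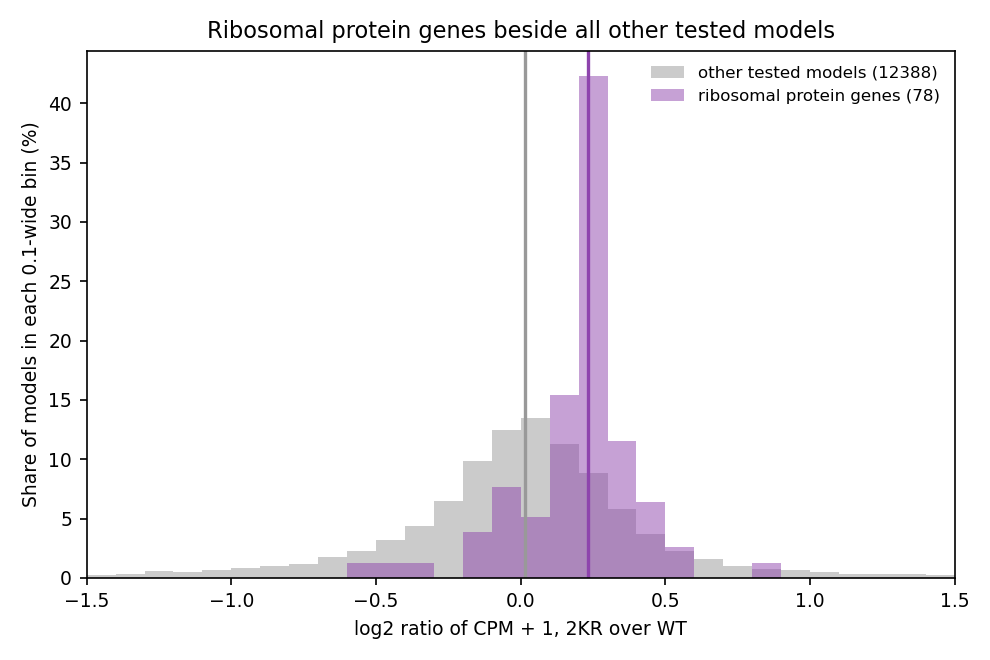
Distribution of the log2 ratio of CPM + 1 (2KR over WT) for 78 ribosomal protein genes and 12388 other tested models, as the share of models in each bin; vertical lines mark the medians. Ribosomal protein genes form a narrow peak around 0.23, and the other models a broad one around 0.02, with models beyond 1.5 in either direction off the axis.

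Other models at a high level or of a short counted length had medians closer to 0. Other models at 100 CPM or more had a median log2 ratio of 0.03 over 2557 models. Other models with a counted length of up to 1.5 kb had 0.04 over 995, and the 94 of these at 100 CPM or more had 0.004. Many ribosomal protein genes had longer counted lengths, such as 4833 bases in Rpl3, so the short models were not matched to them in length. Models of the mitochondrial chromosome were not left out of the short models. The 77 mitochondrial ribosomal protein genes, which build the separate ribosome of the mitochondrion, had a median of 0.10, with 56 ratios above 1 and 30 intervals wholly above 1. The ratios above 1 were 72.7% of them, beside 52.3% of all tested models, of which 31.6% had an interval wholly above 1. These are descriptions, and no test of the difference could be made.

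The ratios lay close together. Of the 78 genes, 52 were within 1.1-fold of the summed ratio and 64 within 1.2-fold, and the counting intervals of 50 held it. The share of other models within such folds of their own summed ratio was not computed. At 100 CPM or more, the quartiles of the log2 ratio were 0.20 and 0.28 for 43 ribosomal protein genes. For the 2557 other models at that level they were -0.15 and 0.19. Of the 78 genes, 12 had an interval wholly above the summed ratio of the members and 16 wholly below. Both subunits had the same pattern: the median was 0.23 over 32 genes of the 40S subunit and 0.24 over 46 of the 60S subunit, with 27 and 39 ratios above 1.

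**Figure D2:**
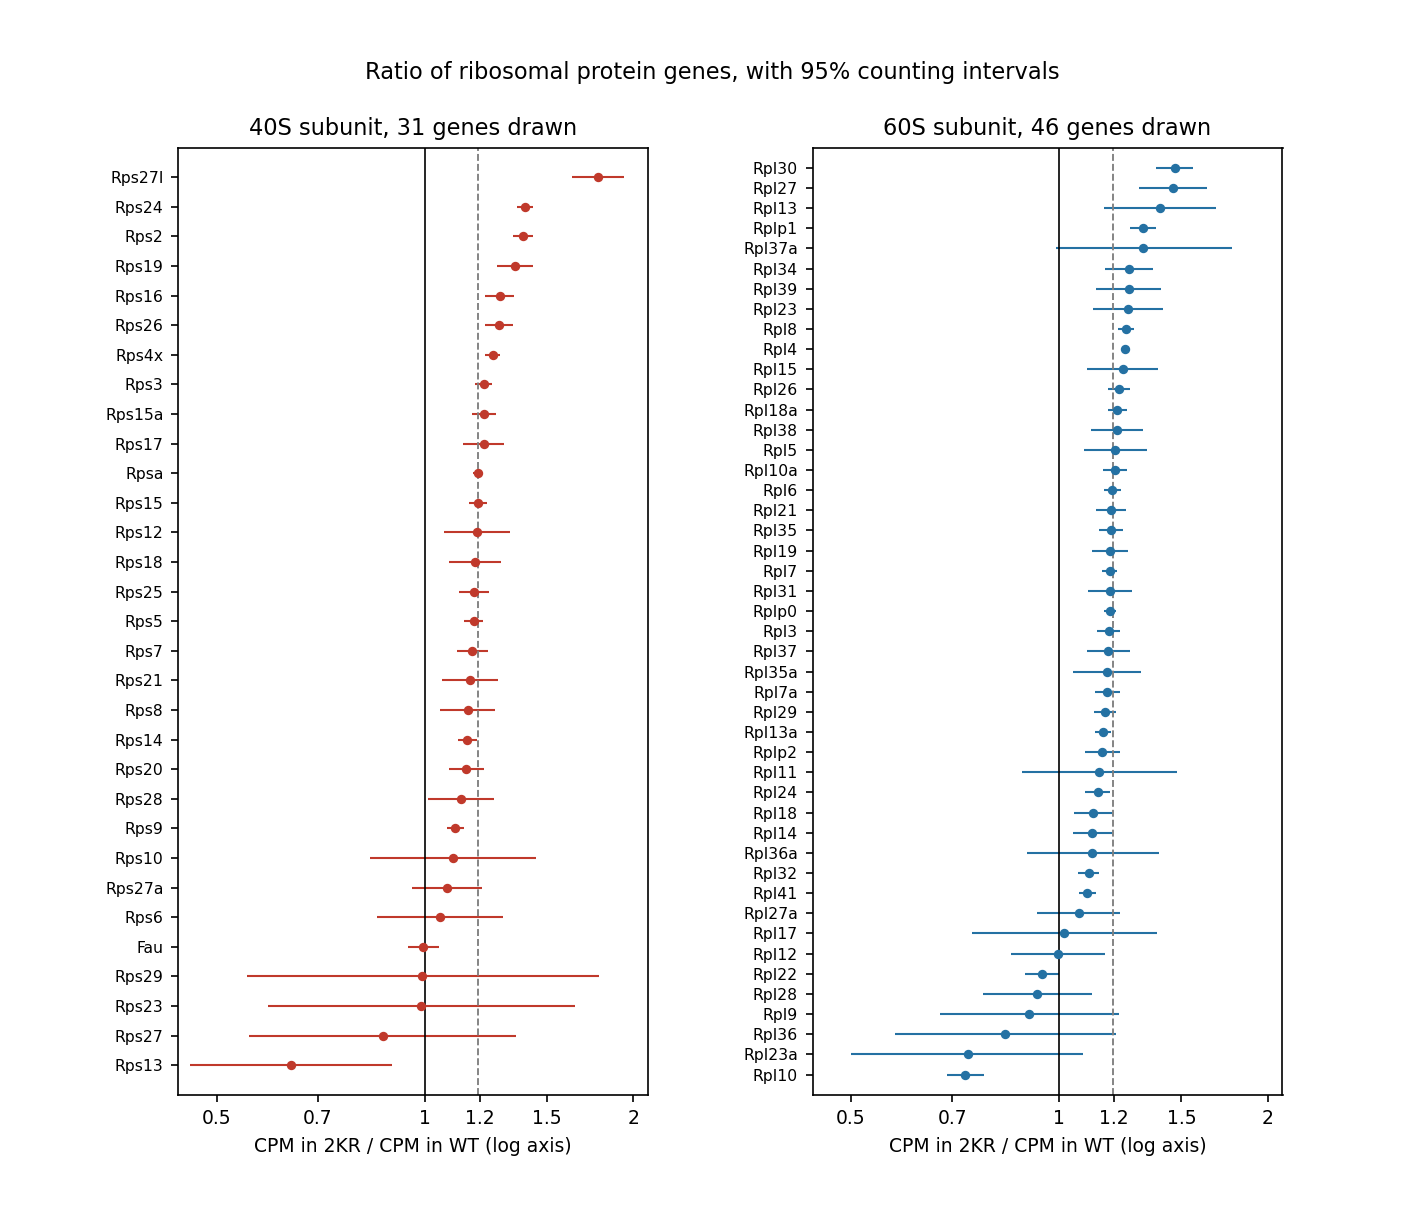
CPM in 2KR over CPM in WT for 77 of the 78 ribosomal protein genes on a log axis, ordered within each subunit. Points are ratios and bars their 95% counting intervals; the solid line marks 1 and the dashed line the summed ratio of 1.195. Most points of both subunits sit at the dashed line, with Rps27l far to the right and Rpl10 and Rps13 to the left of 1.

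The abundant genes Rpl4, Rpsa, Rpl8 and Rpl13a were higher in the 2KR library. Rpl4 (ENSMUSG00000032399, chromosome 9, 64173387 to 64178562 in GRCm38), a core large-subunit protein that lines the exit tunnel, had 1436 CPM (WT) and 1788 (2KR), a ratio of 1.246 (1.226 to 1.266). Rpsa, the small-subunit protein also known as the laminin receptor, had 1357 and 1619 CPM, a ratio of 1.193 (1.173 to 1.213). Rpl8, of the catalytic region of the large subunit, had 563 and 703 CPM (ratio 1.248, 1.217 to 1.281). Rpl13a, whose protein also takes part in silencing inflammatory mRNAs once released from the ribosome, had 537 and 621 CPM (ratio 1.157, 1.126 to 1.188).

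**Figure D3:**
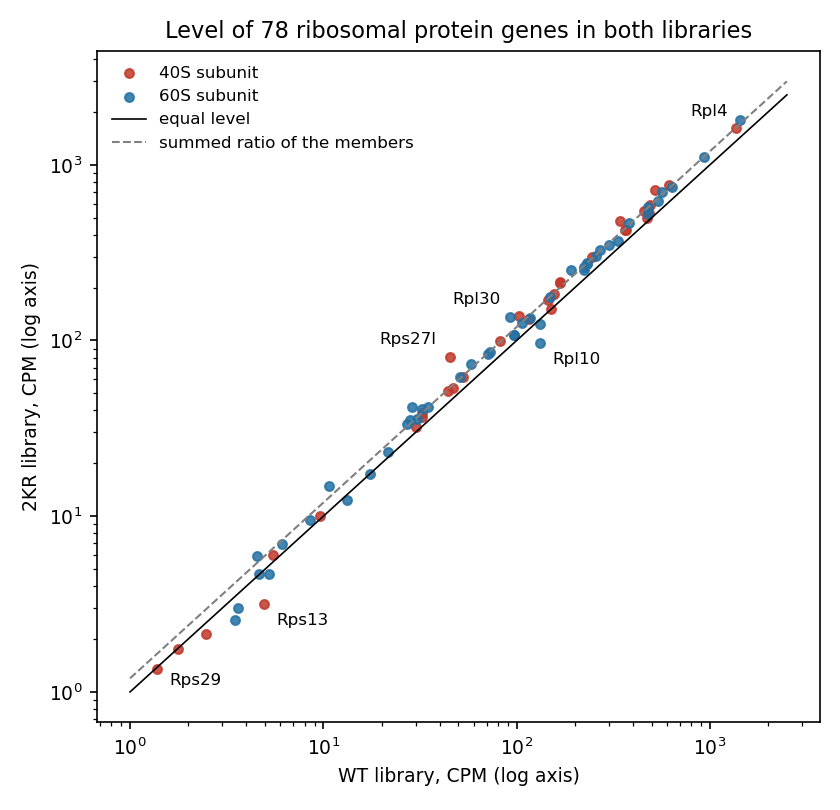
CPM in the WT library against CPM in the 2KR library for the 78 ribosomal protein genes, on log axes, coloured by subunit. The solid line marks equal levels and the dashed line the summed ratio of 1.195; most points follow the dashed line above 10 CPM, and Rps27l, Rpl10 and Rps13 stand off it.

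In the 60S stalk, the flexible arm that recruits elongation factors, the level was higher in 2KR for Rplp0, Rplp1 and Rplp2. Rplp0, the base of the stalk, had 935 CPM (WT) and 1106 (2KR), a ratio of 1.18 (1.16 to 1.21). Rplp1, one of the acidic proteins at its tip, had 190 and 252 CPM, a ratio of 1.32 (1.26 to 1.38), and its partner Rplp2 had 117 (WT) and 135 CPM (2KR), a ratio of 1.15 (1.09 to 1.22). The intervals of Rplp1 and Rplp2 do not overlap, so the partners at the tip differed by more than counting error. Rpl12, at the foot of the stalk, had 17.4 CPM in both, with an interval of its ratio from 0.853 to 1.16. With the counts of its near-identical copy added, the ratio was 1.26 (1.23 to 1.29).

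Rpl5 and Rpl11 bind the 5S ribosomal RNA and, when ribosome assembly fails, hold back MDM2 so that p53 accumulates. Rpl5 had 607 counts (WT) and 861 (2KR), a ratio of 1.204 (1.084 to 1.338). Rpl11 had 107 and 144 counts, a ratio of 1.14 (0.883 to 1.48). Its near-identical copy had 2069 and 3291 counts, and with these added the ratio was 1.34 (1.27 to 1.41). Of 8 genes of ribosomal protein quality control and p53, 6 had a ratio above 1. Usp10, a deubiquitinase of small-subunit proteins and p53, had the highest at 1.41 (1.30 to 1.53), and Mdm2 had 1.05 (0.977 to 1.14) and Trp53 0.998 (0.951 to 1.05), which came to just above 1 without TMM scaling.

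Rps27a and Fau, which are made as fusions with ubiquitin or a ubiquitin-like protein, had ratios near 1. Rps27a, a ubiquitin fusion, had 30.1 CPM (WT) and 32.3 (2KR), a ratio of 1.07 (0.957 to 1.21). Fau, whose protein is cut to give Rps30, had 151.2 and 150.4 CPM, a ratio of 0.995 (0.944 to 1.05) that moved to just above 1 without TMM scaling. The intervals of both held 1, and that of Fau also lay wholly below the summed ratio of 1.195.

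The 20 genes mutated in Diamond-Blackfan anaemia had 18 ratios above 1 and 16 intervals wholly above 1, with a median log2 ratio of 0.24. Over all 78 ribosomal protein genes the counts were 66 and 58, which is 84.6% and 74.4% beside 52.3% and 31.6% of all tested models. Rps19, the gene most often affected in that disease, had 103 CPM (WT) and 139 (2KR), a ratio of 1.35 (1.27 to 1.43). Rps24, also on this list, had 517 and 720 CPM, a ratio of 1.394 (1.358 to 1.431), and Rps26 had 168 and 215 CPM, a ratio of 1.28 (1.22 to 1.34). Rpl27 had 28.7 and 41.9 CPM, a ratio of 1.46 (1.31 to 1.63). With the counts of near-identical copies added, the ratio was 1.13 (1.11 to 1.16) for Rps26 and 1.25 (1.19 to 1.31) for Rpl27. Rps14 (chromosome 18), the gene lost in the 5q- form of myelodysplasia, had 367 and 423 CPM, a ratio of 1.15 (1.11 to 1.19).

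Groups by place in the ribosome had nearly the same medians. The 14 genes of the 40S head had a median log2 ratio of 0.23, with 13 ratios above 1, and the 8 genes around the 60S exit tunnel had 0.24, with 7 above 1. The 33 proteins with counterparts in bacteria had a median of 0.24 (26 ratios above 1), and the other 45 tested genes had 0.23 (40 above 1).

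The highest ratios of the 40S subunit, after Rps27l, were those of Rps24, Rps2 and Rps19. Rps2 (chromosome 17, 24718116 to 24721929), at the mRNA entry site, had 344 CPM (WT) and 477 (2KR), a ratio of 1.386 (1.342 to 1.432). Those of the 60S subunit were in Rpl30, Rpl27, Rpl13 and Rplp1. Rpl30 had 92.8 and 136 CPM, a ratio of 1.47 (1.38 to 1.56), and Rpl13 had 186 and 306 counts, a ratio of 1.40 (1.16 to 1.68). The intervals of Rps24, Rps2, Rps19, Rpl30, Rpl27 and Rplp1 lie wholly above the summed ratio of 1.195, and that of Rpl13 holds it. With near-identical copies added, the interval of Rpl27 (1.190 to 1.313) holds it too.

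Rpl10 was the clearest exception in the other direction. This gene (ENSMUSG00000008682, chromosome X, 74270812 to 74273135) encodes a late-joining large-subunit protein beside the catalytic centre. It had 2300 counts (WT) and 1983 (2KR), or 131.6 and 96.2 CPM, a ratio of 0.732 (0.689 to 0.777). Among the 43 genes with a mean of at least 100 CPM, 40 had a ratio above 1 with an interval wholly above 1, and Rpl10, Rpl22 and Fau were the other 3. Every coding window of Rpl10 is also found in other models. Of these, Rpl10-ps3 had 71 and 57 counts, and the small nucleolar RNA gene Snora70 overlaps Rpl10 on the same strand. Of the other X-linked members, Rps4x had a ratio of 1.253 (1.223 to 1.284) and Rpl39 of 1.26 (1.13 to 1.40). Rpl36a had 1.12 (0.897 to 1.39), with an interval that holds 1. Any link with the chromosome was not tested.

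Rpl22, an RNA-binding large-subunit protein needed for T cell development, had 132 CPM (WT) and 124 (2KR), a ratio of 0.943 (0.891 to 0.998). With library totals alone the interval held 1 (0.903 to 1.012), as it did with totals that leave out the members (0.907 to 1.016). Its paralog Rpl22l1, which the symbol rule does not take, had 15.5 (WT) and 18.4 CPM (2KR), a ratio of 1.187 (1.013 to 1.392). The intervals of this pair do not overlap. Rps13, a small-subunit core protein, was the other gene with an interval wholly below 1, from 86 counts (WT) and 65 (2KR) (ratio 0.641, 0.457 to 0.895), at 4.92 and 3.15 CPM.

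Rps27l had the highest ratio of the 78 genes. It encodes a near relative of Rps27 and is known as a target of p53. It had 792 counts (WT) and 1660 (2KR), or 45.3 and 80.6 CPM, a ratio of 1.78 (1.63 to 1.94). Rps27 itself had 43 and 44 counts (ratio 0.868, 0.557 to 1.35), whereas Rps27rt, an intronless copy on chromosome 9, had 2886 and 3765 counts, a ratio of 1.11 (1.05 to 1.16). The first 90 coding bases of the 3 genes, from the GENCODE M21 transcripts, show how far reads can separate them; capitals mark bases that differ from Rps27.
Rps27: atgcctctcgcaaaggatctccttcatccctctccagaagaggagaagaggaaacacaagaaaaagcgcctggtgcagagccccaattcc
Rps27rt: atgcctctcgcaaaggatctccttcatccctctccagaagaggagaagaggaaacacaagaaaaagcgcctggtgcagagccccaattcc
Rps27l: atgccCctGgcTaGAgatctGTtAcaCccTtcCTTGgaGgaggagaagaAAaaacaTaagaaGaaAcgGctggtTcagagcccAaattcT
Over all 255 coding bases Rps27rt had 0 differences from Rps27, and Rps27l had 61, or 76.1% identity. Rps27 and Rps27rt thus cannot be told apart by their coding sequence. Rps27l can be told from both, although 48.3% of its own coding windows are held by other models.

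Such copies are frequent in this family, since ribosomal protein mRNAs have left many processed pseudogenes in the mouse genome. The coding sequence of each gene was cut into windows of 50 bases and searched in all other GENCODE M21 transcripts. Of 82 genes, 76 had at least 1 other model that held 10% or more of their windows, and 621 such gene and model pairs were found. Of these models 63 had a row in the files and 48 had a count. For 30 of the 78 tested genes every window was found elsewhere. The treatment of reads that map to several places is not stated in the labels.

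For 11 genes the near-identical copies (models with at least 50% of the windows and at most 2 times the length) had more counts than the gene itself in both libraries. Beside Rpl5, Gm15500 on chromosome 7 had 11180 counts (WT) and 16527 (2KR), a ratio of 1.25 (1.22 to 1.28), against 607 and 861 in Rpl5 itself. Gm10275, which holds every coding window of Rpl12, had 9153 and 13703 counts, a ratio of 1.27 (1.24 to 1.30), against 305 and 358 in Rpl12. Rpl9-ps6 had 2956 and 4264 counts, a ratio of 1.22 (1.17 to 1.28), against 91 and 97 in Rpl9. For Rpl12 and Rpl9 the copy thus had a ratio above 1 and the gene itself did not.

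**Figure D4:**
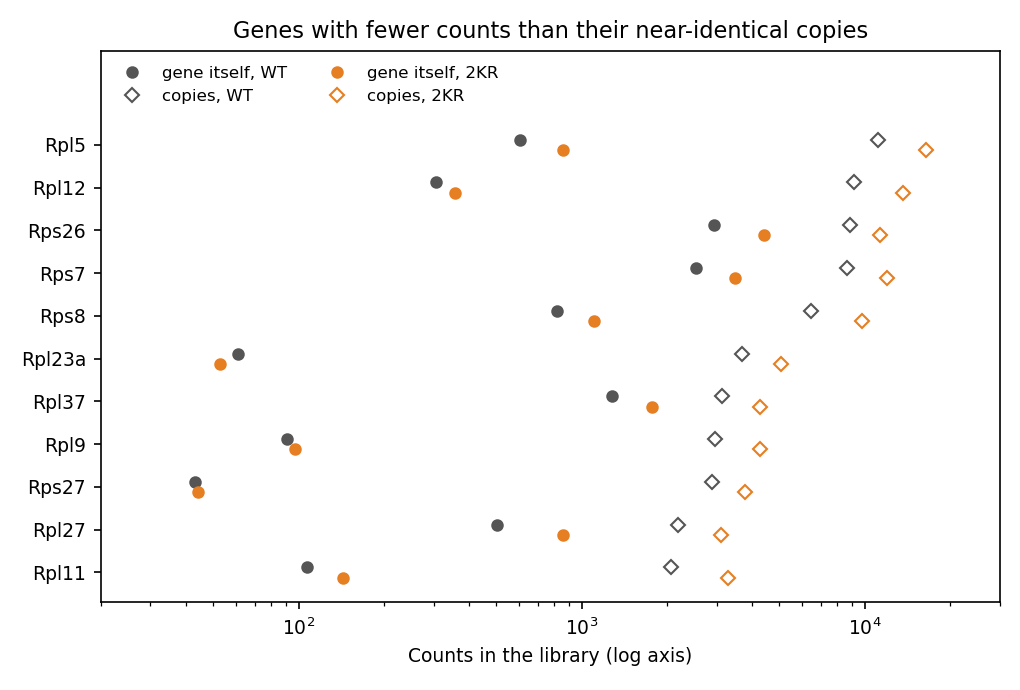
Counts (log axis) of the 11 ribosomal protein genes that had fewer counts than their near-identical copies in both libraries. Filled circles are the gene itself, open diamonds the sum of its copies, grey for WT and orange for 2KR; Rps27 has 43 and 44 counts beside 2886 and 3765 in its copies.

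The 13 tested genes under 10 CPM had a median log2 ratio of -0.01, with 6 ratios above 1 and no interval wholly above 1. The 22 genes from 10 to 100 CPM and the 43 at 100 CPM or more both had a median of 0.24. Of the 12 genes with a ratio below 1, 7 were under 10 CPM: Rps13, Rpl23a, Rpl36, Rps27, Rpl9, Rps23 and Rps29. Rpl36 had 63 counts (WT) and 62 (2KR), Rps23 had 31 and 36, and Rps29 had 24 and 28, and the interval of each held 1. The other 5 were Rpl10, Rpl28, Rpl22, Fau and Rpl12. With the counts of near-identical copies added, Rpl23a went from a ratio of 0.737 (0.5004 to 1.0831) to 1.16 (1.11 to 1.21), Rps27 from 0.868 to 1.103 (1.051 to 1.158) and Rpl12 from 0.996 to 1.26 (1.23 to 1.29). Rpl10 was at 0.730 (0.688 to 0.775), where the added copies held only 71 counts (WT) and 57 (2KR). Of 10 models that hold 10% or more of its windows, 2 had a row, so this sum could hardly move its ratio.

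Levels per length were spread widely. As CPM per kb of the principal transcript, the 78 genes ran from 1.89 (Rps23) to 1088 (Rpl41) in WT, a 575-fold range, with a median of 156. Genes with every coding window shared had a median of 26.3, and the 12 genes with under 50% of their windows shared had 577, with a range from 90.8 (Rps27l) to 933 (Rpl4). Across the 78 genes in WT, the share of windows held elsewhere and this level had a Spearman rho of -0.56, given as a description, since all points come from 1 library. Rpl41 and Rpsa were high, with at least 98.8% of their windows held elsewhere. The windows cover coding bases only, which in Rpl41 are 75 of the 437 bases of the principal transcript.

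**Figure D5:**
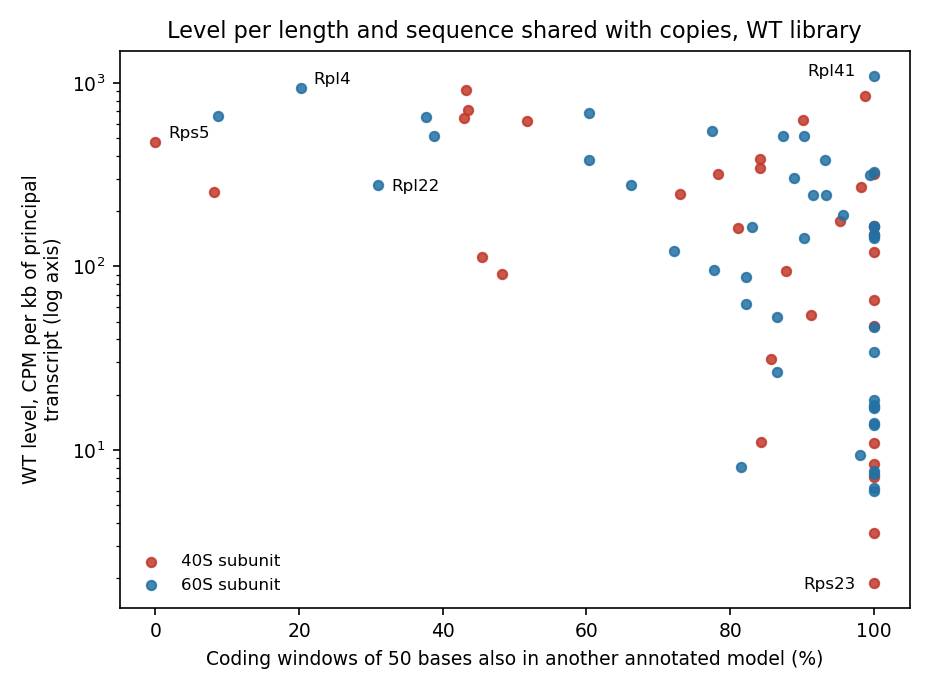
WT level in CPM per kb of the principal transcript (log axis) against the share of 50-base coding windows found in another annotated model (%), for 78 ribosomal protein genes coloured by subunit. Genes with under 50% of windows shared lie between 90.8 and 933, and those at 100% spread from 1.89 to 1088.

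The order of genes by level was almost the same in both libraries. On the deposited FPKM scale Rpl4 was first, at 1003 in WT and 1266 in 2KR, and Rpl9 and Rps13 had the lowest values, at 0.473 and 0.584 in WT and 0.434 and 0.380 in 2KR. Of 78 genes, 69 moved by no more than 2 places between the libraries and the largest move was 9 places. The gene lengths behind the deposited FPKM were above the principal transcript by over 1% in 68 of 78 genes, by a median factor of 3.39. FPKM therefore orders some genes lower than CPM per kb of principal transcript does.

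Members with restricted expression were near or at zero, apart from Rps27l. Rpl10l, the testis copy of Rpl10, and Rpl39l, the relative of Rpl39 found in testis, had 0 counts in both libraries. A count of 0 allows up to 0.172 CPM (WT) and 0.146 (2KR), at 3 counts. Rpl3l, the form of Rpl3 used in heart and skeletal muscle, had 7 counts (WT) and 29 (2KR), a ratio of 3.52 (1.51 to 9.51). It lies on chromosome 17 from 24727820 to 24736143, close to Rps2, and 0.0% of its coding windows were shared. Rps4l had 9 and 1 counts. These 4 genes were the ones under the filter. Of relatives that the symbol rule does not take, Rpl7l1 had 102 CPM (WT) and 119 (2KR), a ratio of 1.168 (1.099 to 1.243), and Rpl36al had a ratio of 1.08 (0.972 to 1.204).

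Promoters were read from RefSeq (GRCm38.p6), where 61 of the 82 genes matched by symbol. Where a gene had several, the start nearest the 5′ end of the gene model was taken for members. For other genes the promoter of lowest coordinate was taken, so the shares below do not compare like with like. A C at the annotated start followed by 4 pyrimidines, the opening of a TOP tract, was present in 13 of 61 genes (21.3%) and in 2.53% of 27025 genes' promoters. A run of 8 pyrimidines within 30 bases of the start was present in 33 of 61 (54.1%) and in 22.98% of all, and CTTTCC there, on either strand, in 19.7% and 5.45%. Over the 300 bases and both strands, CCGGAAG, the core recognised by ETS factors such as GABPA, was in 39.3% against 9.08% of all. AAGATGGC, the YY1 core, was in 8.2% against 2.86%, CACGTG, the E-box bound by MYC, in 8.2% against 7.09%, and TATAAA in 8.2% against 14.1%. A match describes the letters and shows no binding.

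The windows from 40 bases before the RefSeq start to 20 after it are shown for 10 genes, 7 within 1.1-fold of the summed ratio, with long and short runs of pyrimidines, and 3 that stood off it (Rpl10, Rps27l and Rpl27). Rpl27 stood off it by its own counts only. With near-identical copies added its interval (1.190 to 1.313) held the summed ratio. Capitals mark the longest run of pyrimidines near the start, or the first where runs tie in length, as in Rps27l.
Rpl4 (chr9:64173347-64173406, plus strand): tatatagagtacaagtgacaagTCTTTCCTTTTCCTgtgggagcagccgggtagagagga
Rpl7a (chr2:26910767-26910826, plus strand): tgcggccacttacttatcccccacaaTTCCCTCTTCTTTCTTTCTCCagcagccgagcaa
Rps25 (chr9:44407674-44407733, plus strand): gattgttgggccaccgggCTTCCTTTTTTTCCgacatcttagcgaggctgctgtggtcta
Rpl13a (chr7:45128726-45128785, minus strand): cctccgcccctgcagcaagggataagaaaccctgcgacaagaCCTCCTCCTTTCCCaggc
Rps15a (chr7:118116128-118116187, minus strand): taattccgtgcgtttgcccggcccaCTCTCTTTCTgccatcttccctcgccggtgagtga
Rplp0 (chr5:115559427-115559486, plus strand): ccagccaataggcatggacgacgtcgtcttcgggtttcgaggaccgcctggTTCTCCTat
Rpl26 (chr11:68901526-68901585, plus strand): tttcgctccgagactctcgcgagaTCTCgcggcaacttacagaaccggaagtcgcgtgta
Rpl10 (chrX:74270776-74270835, plus strand): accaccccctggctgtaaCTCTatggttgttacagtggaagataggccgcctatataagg
Rps27l (chr9:66946046-66946105, plus strand): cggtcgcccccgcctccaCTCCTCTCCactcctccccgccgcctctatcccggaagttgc
Rpl27 (chr11:101442205-101442264, plus strand): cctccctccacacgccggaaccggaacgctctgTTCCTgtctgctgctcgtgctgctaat
The run was 21 bases in Rpl7a, 14 in Rpl4, Rps25 and Rpl13a, 10 in Rps15a, 9 in Rps27l, 7 in Rplp0, 5 in Rpl27 and 4 in Rpl26 and Rpl10, beside a median of 7 over the 61 genes. Rpl26 had the same run length as Rpl10 and a ratio of 1.22 (1.18 to 1.27). Rps3 and Rpl24, with runs of 3, had ratios of 1.22 (1.18 to 1.25) and 1.14 (1.09 to 1.18). Rpl26, Rps3 and Rpl24 were picked with their ratios known, and a link between run length and ratio was not tested. The RefSeq start need not be the start used in these cells.

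Other parts of the translation machinery were read from lists. Among 16 genes of elongation and of other mRNAs known for TOP tracts, 14 had a ratio above 1, each with an interval wholly above 1, and 2 an interval wholly below 1. Of all tested models, 52.3% had a ratio above 1, 31.6% an interval wholly above 1 and 28.5% wholly below. The median log2 ratio of the list was 0.25. Npm1, a nucleolar chaperone, had the highest of the list at 1.465 (1.429 to 1.5006), followed by Pabpc1, a poly(A)-binding protein, at 1.284 (1.261 to 1.308). Eef1a1, the elongation factor that delivers aminoacyl-tRNA, was the most abundant, with 7098 CPM (WT) and 8870 (2KR) and a ratio of 1.250 (1.241 to 1.259).

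Initiation factors had more uneven ratios. Of 23 genes, 17 (73.9%) had a ratio above 1, beside 52.3% of all tested models, and the median was 0.15. Intervals lay wholly above 1 for 13 and wholly below for 4, beside 31.6% and 28.5% of all tested models. Eif4a2, an RNA helicase, was lowest at 0.600 (0.584 to 0.616), and Eif4h, which aids that helicase, had 0.735 (0.706 to 0.765). Eif2s2, the beta subunit of eIF2, was highest at 1.47 (1.37 to 1.57), and Eif4g2, the most abundant, had 1.11 (1.08 to 1.13).

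Of 14 genes on a list drawn up for chaperones and importers of ribosomal proteins, 11 had a ratio above 1 and 8 an interval wholly above 1. Over all tested models the shares were 52.3% and 31.6%. The median of the list was 0.24. Nacc1 and Znhit3 on this list are not known for these roles, and both had intervals wholly above 1. Nap1l1, a histone chaperone of this list, had 131 CPM (WT) and 190 (2KR), a ratio of 1.46 (1.38 to 1.54). Grwd1, which chaperones Rpl3, had a ratio of 1.35 (1.15 to 1.59).

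The 15 genes of mTORC1 and of TOP mRNA control had a median of 0.02, with 8 ratios above 1 (53.3%, beside 52.3% of all tested models) and 7 below. Deptor, an inhibitor of mTOR, was the 1 gene of that list at least 2-fold different, with 187 CPM (WT) and 77.5 (2KR), a ratio of 0.415 (0.391 to 0.441). Pdcd4, an inhibitor of eIF4A that S6 kinase marks for degradation, had 1.55 (1.43 to 1.69), and Akt1s1, the mTORC1 inhibitor PRAS40, had 0.735 (0.669 to 0.807). Larp1, which binds TOP mRNAs, was the most abundant and had 1.13 (1.09 to 1.17). The 10 proliferation genes all had a ratio above 1, beside 52.3% of all tested models. Their median was 0.25, and their part in the shift of the ribosomal protein genes was not tested.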

How the data were processed

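RNA-seq was read from 2 libraries, 1 for each form of PML/RARa, grouped by the infection the labels state. The submitters' processing notes name HISAT2 2.0.4 and GRCm38. Counting program, annotation release, strandedness and treatment of multiply mapped reads: not given in the sources used here. Deposited values, per the file headers, are raw read counts and FPKM for each gene model. The FPKM equalled the count over a fixed length and the library total within 0.1% for all 15403 models counted in both. Members overlapped by an antisense model number 18, and by a same-strand model 27, often a small nucleolar RNA; without strand information such reads cannot be told apart.

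Counts were scaled by TMM (edgeR 4.0.16, R 4.3.3) and given as CPM. A mean of 1 CPM or more was required, which 12466 models met. Log2 ratios used CPM + 1; ratios used CPM. Exact 95% intervals follow Clopper and Pearson, taken on the 2KR share of a model's counts, and they and the floor of 3 counts cover counting error only. Software was scipy 1.17.1, pandas 2.3.3, numpy 2.4.6 and matplotlib 3.10.9 under Python 3.11.15, and the interval and size rules were tested on simulated data. Principal transcripts are those of APPRIS in GENCODE M21, the shortest of several.

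The members and lists were chosen with earlier results of these data known. Every member could be named, with values given for the 4 highest and 4 lowest ratios and the 3 highest FPKM of each subunit, for the stalk, 5S, ubiquitin fusion and restricted groups, and for Rps19 and Rps14. Results of some genes that this rule takes are not reported here. In other lists, up to 3 genes of largest ratio and the most abundant could be named. The promoter windows, Rps3, Rpl24, Rpl26, progenitor markers other than Kit, Rpl22, Rps26, Mdm2, Trp53 and the genes shown with their copies were chosen after their values were seen.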

Additional observations from a re-analysis of the deposited data

How the results depend on the processing

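The results over all members and each subunit, 57 named genes and 13 gene groups were recomputed under those of 14 other settings that apply to them, 3 of which were chosen after seeing the data. Levels per length, shared windows, promoters and marker sums were not recomputed. The median log2 ratio ran from 0.22 to 0.26 for all members and, over the alternatives that apply to them, from 0.005 to 0.04 for all tested models. The summed ratio was 1.2116 with library totals alone, 1.2158 with totals that leave out the members, and 1.2054 without the genes whose every coding window is shared. The number of genes at least 1.2-fold lower went from 3 to 1 at a mean of at least 5 CPM, to 0 without the fully shared genes and to 1 at 100 CPM or more. Without the fully shared genes, 1 interval was wholly below 1 instead of 3, and 2 were with library totals alone or with totals that leave out the members, where that of Rpl22 held 1. At 100 CPM or more, 40 of 43 genes had a ratio above 1 and 15 were at least 1.2-fold higher. Of 648 log2 ratios of the named genes, 21 changed sign, in 8 genes, and the cause was not tested. With library totals alone Fau was at 0.0121, Rpl12 at 0.0135, Rps29 at 0.0032 and Trp53 at 0.0175. With totals that leave out the members Fau was at 0.0171, Rpl12 at 0.0183, Rps23 at 0.0025, Rps29 at 0.0061 and Trp53 at 0.0225. On FPKM Fau was at 0.0121, Rpl12 at 0.0101, Rps29 at 0.0034 and Trp53 at 0.0169. With -ps models added, Rpl23a was at 0.2096 and Rpl9 at 0.2788. With sequence copies added, Fau was at 0.0476, Rpl12 at 0.3346, Rpl23a at 0.2096, Rpl9 at 0.2788, Rps23 at 0.0117 and Rps27 at 0.1412. No group median changed sign in 137 values. Counts of intervals on FPKM were not run, since FPKM holds no counts. No paired analysis was possible because each form had 1 library, and no replicate could be left out. Of the 13 genes under 10 CPM, 12 intervals held 1. With sequence copies added, those of Rpl11, Rpl23a, Rpl9 and Rps27 lay wholly above 1.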

Other observations

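The genes named as ribosomal S6 kinases, which the symbol rule leaves out, had a median log2 ratio of 0.07. Some of them phosphorylate Rps6. Of those tested, 2 were at least 2-fold higher, beside 2.66% of all tested models. Rps6ka2 had 17.9 CPM (WT) and 59.98 (2KR), a ratio of 3.35 (2.96 to 3.81), and Rps6ka3 had 105 and 254 CPM, a ratio of 2.43 (2.30 to 2.56). Rps6ka1 had a ratio of 0.726 (0.669 to 0.788). Of the 10 kinase genes 8 were tested, and 5 (62.5%) had a ratio above 1, beside 52.3% of all tested models.

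The 13 models of the mitochondrial chromosome held 7.45% of WT counts and 6.22% of 2KR counts. They had a median log2 ratio of -0.31 and 12 intervals wholly below 1, beside 28.5% of all tested models. Their direction was opposite to that of the cytosolic ribosomal protein genes, and no test of the difference could be made.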
